A study of Mus musculus with 142 samples.

Results

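H19, Igf2 and the insulin-like growth factor (IGF) system were followed in cultured mouse oligodendrocyte progenitor cells (OPCs), the dividing glial cells that mature into myelinating oligodendrocytes. The 10 genes described here are the noncoding RNA gene H19, the ligand genes Igf2 and Igf1, the receptor genes Igf1r, Igf2r and Insr, and the binding-protein genes Igfbp2, Igfbp3, Igfbp4 and Igfbp5, out of 54127 annotated genes, of which 47665 had a count in some library. The genes were chosen by name with measured values of these same libraries in view, so their levels and differences are given as a description, with standard errors from a fit across all genes and with no p-value. All 10 passed the filter on low counts, which kept 19769 genes, and H19, Igf2, Igf1r, Igf2r, Insr, Igfbp2, Igfbp3 and Igfbp4 had reads in every library, whereas Igf1 was at 0 in 23 wells and Igfbp5 in 1.

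IGF1 and IGF2 are small secreted proteins related to insulin, and both bind the receptor tyrosine kinase IGF1R, which signals through insulin receptor substrates to PI3K, AKT and mTOR and to the RAS pathway. IGF2R does not signal in this way and takes IGF2 into the cell for breakdown, the insulin receptor INSR can form hybrids with IGF1R, and the secreted IGF-binding proteins hold the ligands and either withhold or deliver them. H19 and Igf2 are neighbours in an imprinted domain, in which H19 is expressed from the maternal and Igf2 from the paternal chromosome, and both are known as fetal growth genes that are turned down after birth. In the oligodendrocyte lineage IGF1 is known for promoting survival, proliferation and myelination.

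The study asked how the oncohistone H3.3 K27M, a lysine-to-methionine change in histone H3.3 that blocks trimethylation of H3K27, acts on OPCs from different brain regions. Total RNA was sequenced from 142 wells of OPCs that came from brainstem or from dorsal telencephalon (cortex, corpus callosum and hippocampus) of AMGFAP-Cre;K27M litters aged P5-P7, with the genotype labelled Control or K27M. AMGFAP-Cre is the spelling of the labels, and the study names the line hGFAP-Cre. The Cre is driven by the human GFAP promoter, both alleles were kept on an FVB background, and the label does not say which alleles the Control pups carried. Tissue was pooled by region and genotype, depleted of endothelial cells and microglia on a lectin-coated dish and panned on anti-PDGFRa, so that 1 culture is a pool of pups and not 1 animal. Wells at day 0 were in proliferation medium (PDGF, neurotrophin-3, CNTF and forskolin), and wells at days 1, 2 and 5 were in differentiation medium (thyroid hormone, CNTF and forskolin). Each combination of region, genotype and day had 9 wells, except for 8 in brainstem Control at day 1 and brainstem K27M at day 2, and these came from 3 cultures (38, 41 and 42) for each region and genotype, that is from 12 lines with about 3 wells per line and day. Wells of 1 line share their cells, the Control and K27M lines of a culture were assayed at the same time, and 13 of the 48 combinations of line and day mixed wells of different passage. Passage was not matched between genotypes or regions. At day 5 brainstem K27M and Control wells were at passages 4 and 4 in culture 38, 2 and 5 in culture 41 and 4 and 7 in culture 42. Brainstem Control wells ran from passage 3 to 8 and telencephalon wells from 1 to 4. Passage can therefore not be fully told apart from genotype or region. Region and batch cannot be told apart, since each labelled batch holds 1 region.

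Libraries held 26566247 to 455387684 assigned read pairs, with a median of 46895632. The summed level of 5 OPC markers, in CPM (counts scaled to library size, with libraries made comparable by TMM), ran from 766 to 3757, and that of 5 myelin genes from 61.9 to 64170. Of the lists for cells that panning should remove, microglial genes summed to at most 5.78 CPM, endothelial and mural genes to at most 4.77 and choroid plexus genes to at most 6.02. Fibroblast and meningeal genes reached 35.55 and neuronal genes 43.6. Of the 5 microglial markers, Aif1 was at 0 in 91 wells, Csf1r in 86, Tmem119 in 54, Cx3cr1 in 26 and P2ry12, which reached 5.48 CPM, in 2. Astrocyte markers ran from 50.8 to 14190 CPM. In bulk RNA a change in the share of a cell type and a change of RNA per cell cannot be told apart.

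The H19 and Igf2 transcripts carry the precursors of miRNAs, which total RNA libraries of this kind do not measure in their mature form. They are printed for orientation from RefSeq (GRCm38.p6), with the seed, bases 2 to 8, in capitals. Both H19 miRNAs lie on the minus strand in exon 1 of 5 of the main H19 transcript, at chr7:142577112-142577133 for the 5p arm and chr7:142577078-142577099 for the 3p arm, and both Igf2 miRNAs lie in an intron of the main Igf2 transcript, at chr7:142654968-142654989 for the 5p arm and chr7:142654932-142654952 for the 3p arm. No seed is shared among the 4.
mmu-miR-675-5p: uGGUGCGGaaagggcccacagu
mmu-miR-675-3p: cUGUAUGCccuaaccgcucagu
mmu-miR-483-5p: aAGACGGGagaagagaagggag
mmu-miR-483-3p: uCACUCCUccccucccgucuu

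Igf2 has several promoters, and 2 of the annotated ones carry most of what the text below says about Igf2 transcripts. The first window, chr7:142657447-142657746 on the minus strand of GRCm38.p6, holds the start sites of transcripts Igf2-201 and Igf2-202. Each RefSeq window runs from 250 bases before a gene start to 50 bases after it and was searched on both strands for the TATA box TATAAA, for the Sp1-type GC box GGGCGG and for the E box CACGTG, and matches are in capitals.
Igf2, start of Igf2-201 and Igf2-202: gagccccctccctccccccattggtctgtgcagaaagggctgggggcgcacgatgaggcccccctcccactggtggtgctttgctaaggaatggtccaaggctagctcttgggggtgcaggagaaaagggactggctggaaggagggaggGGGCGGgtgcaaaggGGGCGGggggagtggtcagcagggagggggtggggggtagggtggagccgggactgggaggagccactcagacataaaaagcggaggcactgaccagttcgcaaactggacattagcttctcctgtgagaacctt
Igf2, start of Igf2-203, chr7:142666767-142667066, minus strand: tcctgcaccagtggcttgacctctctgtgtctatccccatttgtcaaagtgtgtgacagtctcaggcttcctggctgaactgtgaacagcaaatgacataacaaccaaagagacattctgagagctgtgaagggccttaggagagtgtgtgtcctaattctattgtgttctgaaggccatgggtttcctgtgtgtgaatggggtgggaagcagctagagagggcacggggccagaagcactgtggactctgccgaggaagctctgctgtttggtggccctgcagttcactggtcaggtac
The first window held 2 GC box matches and the second none of the 3 motifs. Of 32817 RefSeq promoter windows of this length, 35.6% held the GC box, 13.6% the TATA box and 7.15% the E box, so these matches are a description only.

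The levels of the 10 genes spanned 4 orders of magnitude. On a per-length scale, TPM rescaled without the short RNAs that took 69.2% to 90.7% of the deposited TPM, the median over wells was 649 for H19, 129 for Igfbp2, 69.6 for Igfbp3, 28.2 for Igf2r, 22.7 for Insr and 11.5 for Igf1r. The other four stood far lower, at 2.51 for Igf2, 2.45 for Igfbp4, 1.44 for Igfbp5 and 0.0552 for Igf1. H19 had the widest span among the abundant genes, from 31.2 to 7464, and in telencephalon K27M wells at day 1 it ranked 4 by mean CPM among protein-coding and long noncoding genes.

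K27M cultures had more H19 than their controls in both regions. A difference was called where the adjusted p was under 0.05 in edgeR's quasi-likelihood test both on wells and on counts summed per line and day, with the same sign. Igf2 was called higher in telencephalon alone, and Igf1r and Igfbp5 in brainstem alone. A call in 1 region does not show that the regions differ. Igf2 medians were also higher in brainstem K27M wells, and Igf1r and Igfbp5 were also higher in telencephalon K27M cultures at day 0. Of these 3 genes, only Igf1r at day 5 was called for a difference of the K27M effects between regions. In brainstem 3 of the 10 genes were called at day 0, 3 at day 1, 4 at day 2 and 5 at day 5, all higher in K27M, where 1.45%, 4.93%, 4.26% and 12.1% of all tested genes were called. In telencephalon 1 was called at day 0, 3 at day 1, 4 at day 2 (2 higher, 2 lower) and 2 at day 5, where 0.389%, 4.99%, 5.3% and 2.28% of all tested genes were called. The median log2 difference of the 10 genes, K27M minus control, was 0.73, 1.05, 1.29 and 1.33 over the 4 days in brainstem and 0.59, 0.43, 0.07 and 0.14 in telencephalon, and the median over all tested genes lay between -0.03 and 0.03. Since the genes were selected on such values, these counts support nothing beyond themselves.

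**Figure D1:**
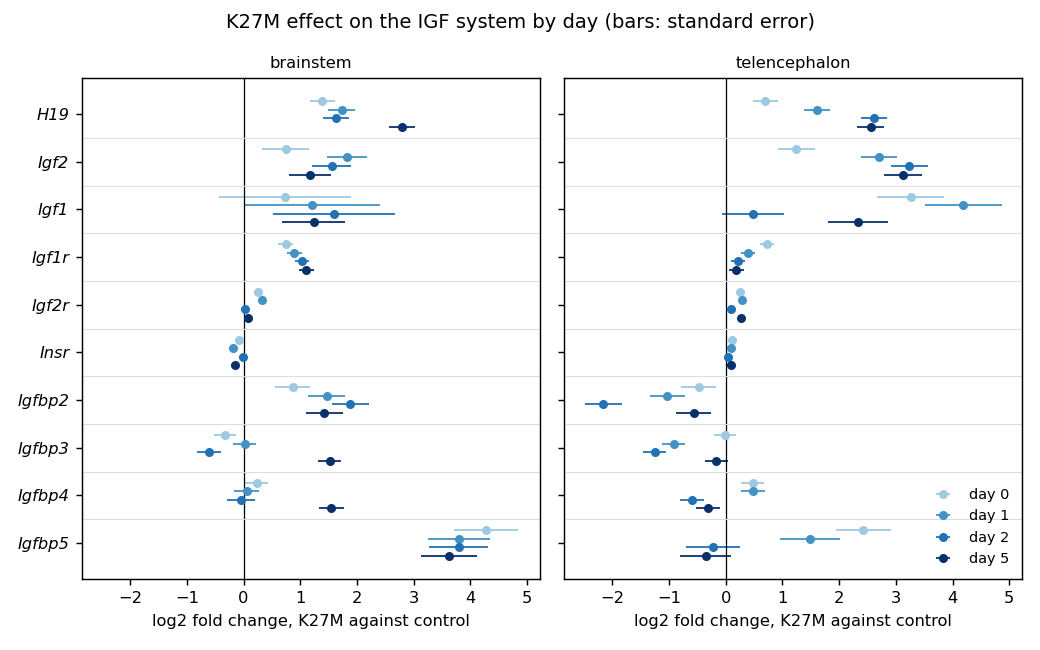
Log2 difference between K27M and control cultures for each of the 10 genes, by day of differentiation and region, with bars for the standard error of the fit across all genes. H19 was above 0 at every day in both regions, Igf1r and Igfbp5 stood higher in brainstem than in telencephalon from day 1 on, and Igfbp2 lay above 0 in brainstem and below 0 in telencephalon.

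H19 was higher in K27M than in control cultures at every day in both regions, and in every culture. In brainstem controls it ran from 100 to 249 CPM (median 135) at day 0, 303 to 982 (444) at day 1, 162 to 528 (419.7) at day 2 and 29.4 to 86.4 (34.4) at day 5. In brainstem K27M wells the same days gave 208 to 603 (371), 1030 to 2430 (1259), 612 to 1730 (1086) and 252 to 369 (303). The ranges of the 2 genotypes did not overlap at days 1, 2 and 5, and overlapped at day 0. The log2 difference was 1.39 ± 0.22 (SE), 1.73 ± 0.24, 1.64 ± 0.23 and 2.79 ± 0.24, and each was called. The day 0 call was lost in 9 of the alternative settings, with differences of 1.27 to 1.43, and those at days 1 and 2 in 3 settings each, with 1.28 to 1.62 and 1.47 to 1.70.

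In telencephalon H19 stood higher in both genotypes and the K27M difference grew up to day 2. Control wells ran from 153 to 1460 CPM (median 717) at day 0, 1066 to 3566 (2064) at day 1, 386 to 1303 (709) at day 2 and 65.1 to 172 (119.7) at day 5. K27M wells ran from 499 to 1606 (1202), 3969 to 6828 (5614), 2071 to 6799 (4282) and 515 to 883 (645). Genotypes overlapped at day 0, where the log2 difference of 0.70 ± 0.22 was not called, and not at days 1, 2 and 5, where it was 1.61 ± 0.23, 2.61 ± 0.23 and 2.55 ± 0.23, each called. The day 1 call was lost without culture 41, without culture 42 and without the replicate block, with 1.36 to 1.65. All 4 region and genotype combinations had their highest median at day 1, the first day in differentiation medium, and their lowest at day 5. Between day 0 and day 5 H19 fell in control cultures, by 1.69 ± 0.23 on the log2 scale in brainstem and by 2.50 ± 0.23 in telencephalon, and the K27M differences of -0.28 ± 0.22 and -0.64 ± 0.22 were not called.

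Ordered by median, the 16 groups ran from telencephalon K27M at days 1 and 2 down to brainstem Control at day 5, and each group's wells overlapped those of the next except at 1 step, between brainstem K27M at day 5 and brainstem Control at day 0. H19 was lower in brainstem than in telencephalon at every day, by 1.08 to 2.18 on the log2 scale, in both genotypes, and 6 of these 8 differences were called. Culture 38 weighed on the control comparisons: its telencephalon wells at day 0 averaged 1272 CPM against 349 and 558 in cultures 41 and 42, and without culture 38 the day 0 difference of -2.18 became -1.51 and the day 1 difference of -1.86 became -1.13, neither called. Without culture 42 the control differences at days 1 and 5 were -2.53 and -2.11 against -1.86 and -1.37 with all cultures.

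**Figure D2:**
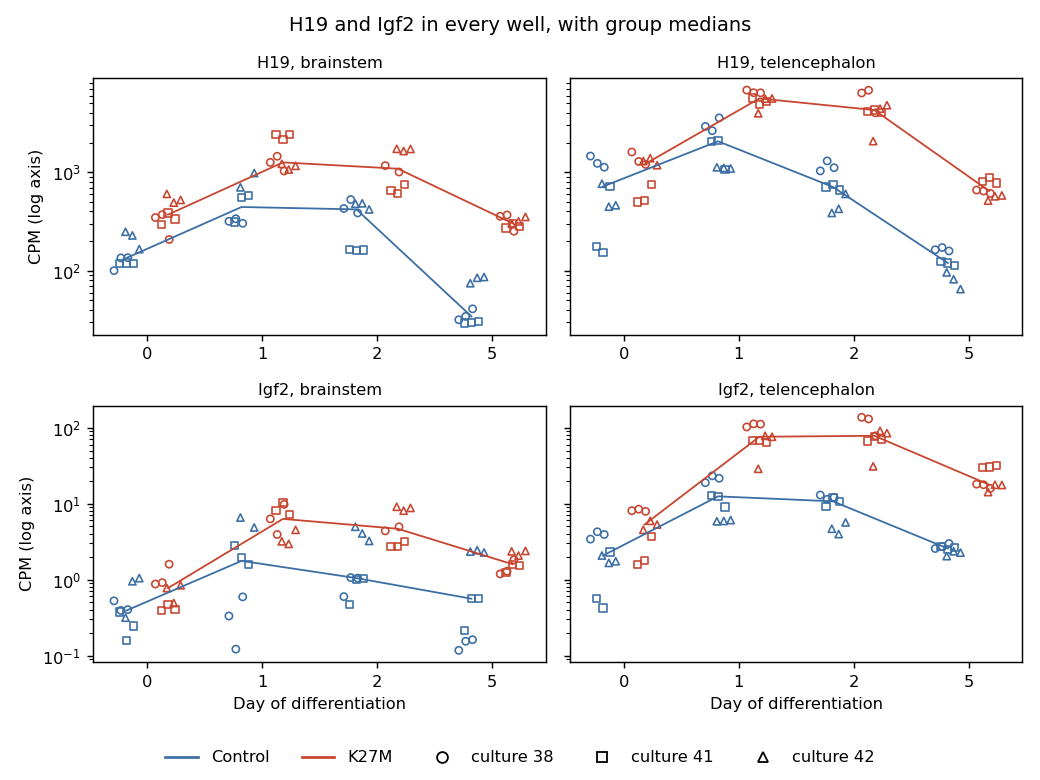
CPM of H19 and Igf2 in every well (log axes), by day and region, with control wells in blue, K27M wells in red, 1 marker shape per culture and lines through the group medians. H19 peaked at day 1 in all 4 series, and Igf2 reached its highest values, up to 137 CPM, in telencephalon K27M wells at days 1 and 2.

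Igf2 RNA was low in brainstem and rose to a mid-range level only in telencephalon K27M wells during differentiation. In telencephalon controls it ran from 0.422 to 4.26 CPM (median 2.07) at day 0, 5.85 to 23.2 (12.5) at day 1, 3.97 to 13.0 (10.7) at day 2 and 2.04 to 2.98 (2.56) at day 5. In telencephalon K27M wells it ran from 1.57 to 8.45 (5.30), 28.7 to 112 (75.9), 31.0 to 137 (78.1) and 14.2 to 31.7 (17.7). The genotypes did not overlap at days 1, 2 and 5, and the log2 differences there were 2.70 ± 0.32, 3.24 ± 0.33 and 3.13 ± 0.34, each called, against 1.24 ± 0.32 at day 0, which was not. Without culture 41 none of the 3 was called, at 2.80, 3.50 and 2.80, and without culture 42 those of days 1 and 2 were not, at 2.44 and 2.99 (2.61 at day 1, also not called, without the replicate block).

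In brainstem the group medians were also higher in K27M wells, which overlapped the controls at every day. Control medians were 0.392, 1.76, 1.05 and 0.560 CPM over the 4 days and K27M medians 0.773, 6.29, 4.66 and 1.59, with no well above 10.3. None of the 4 differences (0.74 ± 0.41, 1.82 ± 0.35, 1.55 ± 0.34 and 1.18 ± 0.37) was called, and the control lines differed widely among themselves: at day 1 culture 38 averaged 0.348 CPM and culture 42 averaged 5.70. Culture 42 ran the other way at 3 of the days, with means of 0.770 CPM in Control and 0.702 in K27M wells at day 0, 5.70 and 3.55 at day 1 and 2.35 and 2.27 at day 5. The region difference, brainstem minus telencephalon, was called in all 8 comparisons, between -1.78 and -4.10, and the ranges of the 2 regions did not overlap in K27M wells at days 1, 2 and 5. In controls that difference rested in part on culture 38, without which it was -1.65, -1.27, -1.83 and -1.01 over the 4 days with no call, against -2.24, -2.51, -2.42 and -1.78 with it, and without culture 42 it was -3.79, -3.68 and -3.45 at days 1, 2 and 5. From day 0 to day 5 Igf2 rose in telencephalon K27M cultures by 2.13 ± 0.32, and without culture 41 this was 1.27 and not called.

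H19 and Igf2 levels moved together over lines and days. Over the 48 combinations of line and day, Pearson's r of log2 CPM was 0.84, with 0.79 among the 24 brainstem and 0.84 among the 24 telencephalon ones. The points share libraries and cultures and the value is descriptive. The ratio was not constant: per 100 H19 transcripts (TPM), telencephalon K27M wells had a median of 0.268 Igf2 transcripts at day 0 and of 2.27 at day 5, and telencephalon controls of 0.199 and 1.46. In brainstem the median went from 0.226 to 1.66 in controls and from 0.0889 to 0.372 in K27M wells, so the ratio was higher at day 5 than at day 0 in each series. The other genes annotated beside the pair were near 0: Nctc1 reached at most 0.312 CPM, Gm33148 0.623, Ins2, the insulin gene next to Igf2, 0.0623, and the antisense gene Igf2os 1.79.

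Igf1 RNA was close to absent in most wells. Outside the telencephalon wells of passage 1, the highest of 120 wells had 0.777 CPM and the median was 0.0548. The 22 telencephalon wells of passage 1, of which 16 were K27M and 6 Control, had a median of 2.70 CPM and reached 13.5, and all 19 wells above 1 CPM were among them. Passage and genotype were therefore not balanced for this gene. Culture 42 had both genotypes at passage 1 on 3 of the days: at day 0 the Control well had 0.581 CPM and the K27M wells 1.81 and 2.37, at day 2 the Control wells had 1.96, 2.11 and 0.106 and the K27M well 6.00, and at day 5 the Control wells had 3.33 and 3.74 and the K27M wells 10.7, 11.9 and 13.5. Within passage 1 of that culture the K27M wells were thus above the Control wells on each of these days, with 1 line per genotype. The cell content of these wells differed as well. At day 5 the K27M wells had 40.0 to 44.9 CPM of the macrophage gene Lyz2, against 7.06 and 7.61 in the Control wells. Neuronal sums were 41.8 to 43.6 against 22.1 and 22.4, and fibroblast sums 26.9 to 35.6 against 13.1 and 15.7. Astrocyte sums went the other way, at 4670 to 5148 against 13870 and 14190. The part of cell content was not tested. The 2 K27M wells of culture 42 at passage 3 on day 2 had 0 and 0.050 CPM, beside 6.00 in the well of passage 1. The passage 1 well also had higher marker sums. They were 23.65 CPM for fibroblasts against 0.416 and 0.999, 33.7 for neurons against 12.4 and 14.0, and 1273 for astrocytes against 80.1 and 66.1. Passage and cell content cannot be told apart in these wells. The passage of 1 telencephalon K27M well of culture 41 at day 0, with 0.576 CPM beside 2.05 and 1.91 in the others of its line, is given as 1 in its title and characteristics and as 2 in its library name, and the former was used.

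Where a telencephalon line was sampled at 2 passages on the same day, Igf1 was higher at the lower passage in 8 of 10 cases. The 2 brainstem wells of passage 1 had no Igf1 read. The 3 highest wells, K27M culture 42 at day 5, had 13.5, 11.9 and 10.7 CPM of Igf1 beside 40.0, 43.1 and 44.9 CPM of Lyz2, a gene of macrophages and microglia, while Csf1r was at 1.06, 0.563 and 0.855 and the 5 microglial markers summed to 4.73, 3.73 and 5.13. The same 3 wells had sums of 41.8 to 43.6 CPM for neuronal and 26.9 to 35.6 for fibroblast markers, with the highest value of all wells for each list among them, and astrocyte sums of 4670 to 5148. The part of these cells in the Igf1 level was not tested.

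The fitted K27M differences in telencephalon Igf1 were 3.26 ± 0.59 at day 0 and 4.19 ± 0.68 at day 1, both called, 0.48 ± 0.55 at day 2 and 2.33 ± 0.52 at day 5, and no genotype range was free of overlap. The day 0 call was lost in 6 alternative settings, with 2.72 to 3.51, among them each of the 3 in which 1 culture was left out, and the day 1 call in 4, with 3.63 to 4.20. Brainstem values were lower than telencephalon values in 6 called comparisons, and from day 0 to day 5 Igf1 rose by 3.68 ± 0.87 in brainstem controls, from wells with 0 to 0.0526 CPM to wells with 0.0646 to 0.498. Culture 42 carried much of the region difference in K27M wells: without it the day 2 value of -2.87 became -1.18 and the day 5 value of -2.66 became -1.76, neither called, the day 1 value of -4.60 became -3.82 and the control day 2 value of -3.98 became -2.88, also not called, and without the wells whose passage differed from most wells of their line and day the day 2 value was -0.85, also not called.

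The IGF1 receptor gene Igf1r was higher in brainstem K27M cultures at every day. Brainstem controls had medians of 30.7, 33.3, 29.1 and 16.6 CPM over days 0, 1, 2 and 5, and K27M wells 51.3, 64.2, 55.3 and 36.2. At day 2 controls ran from 21.9 to 38.4 CPM and K27M wells from 45.4 to 86.3, and at day 5 from 11.4 to 20.7 and 26.6 to 49.7, with no overlap at either day. The log2 differences were 0.74 ± 0.13, 0.89 ± 0.13, 1.03 ± 0.13 and 1.11 ± 0.13, each called and each with all 3 cultures higher. The day 0 call was lost in 4 alternative settings, with 0.56 to 0.77, and the day 1 call without culture 41, at 0.82. In telencephalon the difference was of the same size at day 0 (0.73 ± 0.13, ranges apart, not called) and smaller afterwards (0.39, 0.22 and 0.19, SE 0.13), where controls themselves rose to a median of 58.5 CPM at day 2. Igf1r fell by day 5 in brainstem Control (-0.95 ± 0.13), brainstem K27M (-0.58 ± 0.13) and telencephalon K27M cultures (-0.78 ± 0.13), and was not called in telencephalon controls (-0.24 ± 0.13). In the order of the 16 medians, only brainstem Control at day 5 stood apart from its neighbour, and for the 8 genes other than H19 and Igf1r the ranges of all neighbouring groups overlapped.

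Igf2r, the receptor that clears IGF2, was the steadiest gene in the set besides Insr. It rose from day 0 to day 5 in all 4 series, by 0.58 ± 0.05, 0.41 ± 0.05, 0.50 ± 0.05 and 0.52 ± 0.05 (log2) in brainstem Control, brainstem K27M, telencephalon Control and telencephalon K27M. Medians went from 73.9 to 113 CPM, 87.2 to 118, 79.2 to 111 and 95.7 to 139, and in all but the brainstem controls the day 0 and day 5 wells did not overlap. The K27M differences lay between 0.03 and 0.33 and none was called, although telencephalon K27M wells lay above the controls without overlap at day 0 (88.6 to 110.3 CPM against 75.8 to 88.1) and day 1 (101.5 to 131.2 against 87.5 to 99.5). Over the 48 line-days the level followed the summed myelin genes with r = 0.69. Airn, the antisense RNA that silences the paternal Igf2r allele elsewhere in the body, had at most 1.93 CPM.

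Insr, the insulin receptor gene, had medians between 50.4 and 81.8 CPM in the 16 groups. Its K27M differences lay between -0.19 and 0.11 and its day 5 differences between -0.14 and 0.06, none called. The only calls were the higher brainstem control levels at day 0 (0.40 ± 0.07) and day 1 (0.36 ± 0.07). The panning solution contained insulin, a ligand of this receptor, in all groups.

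**Figure D3:**
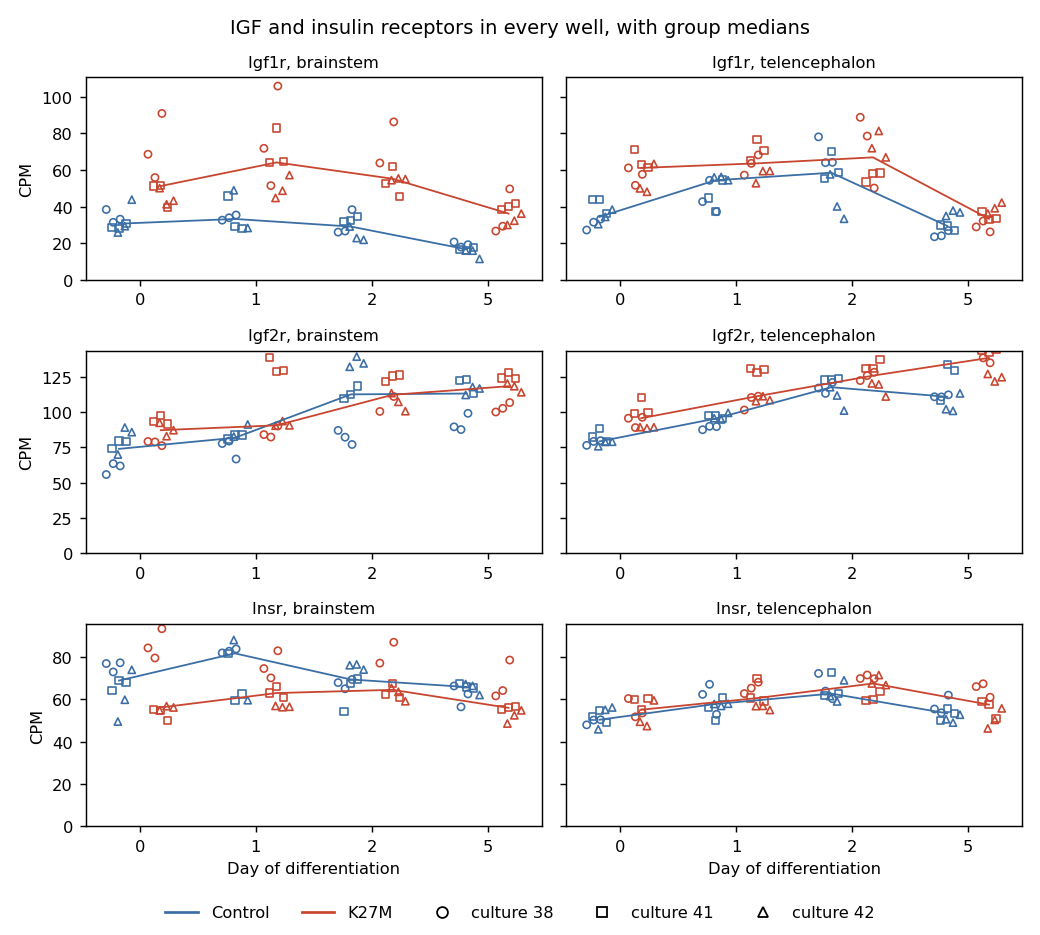
CPM of Igf1r, Igf2r and Insr in every well (linear axes from 0), by day and region, with control wells in blue, K27M wells in red, 1 marker shape per culture and lines through the group medians. Brainstem K27M wells lay above the controls for Igf1r, most clearly at days 2 and 5, while Igf2r rose with the days in both genotypes and Insr stayed between 45.9 and 93.4 CPM.

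The binding-protein genes did not share 1 pattern. Igfbp2 moved with K27M in opposite directions in the 2 regions. In brainstem controls its medians were 65.7, 18.1, 12.7 and 39.3 CPM at days 0, 1, 2 and 5, and in K27M wells 126, 36.0, 35.5 and 219. In telencephalon the controls had 105.5, 33.0, 112 and 165 CPM and the K27M wells 69.7, 19.1, 15.3 and 115. The log2 differences were 0.86 ± 0.31, 1.46 ± 0.33, 1.89 ± 0.33 and 1.43 ± 0.32 in brainstem and -0.48 ± 0.31, -1.03 ± 0.31, -2.16 ± 0.32 and -0.56 ± 0.31 in telencephalon, with all 3 cultures on the same side at days 1, 2 and 5, and only the 2 values at day 2 were called. The brainstem call was lost in 6 alternative settings, with 1.20 to 1.94, and the telencephalon call in 4, with -2.51 to -1.66, among them each of the 3 in which 1 culture was left out. Ranges were free of overlap in brainstem at day 1 alone. In the 13 line-days of mixed passage, Igfbp2 was higher at the lower passage in 10, with a ratio up to 11.25. In telencephalon culture 42 at day 2 the K27M well of passage 1 had 92.2 CPM and those of passage 3 had 8.32 and 8.07. The control wells of that culture and day were all at passage 1. Passage can not be fully told apart from genotype in these differences.

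Astrocyte markers moved with Igfbp2. Over the 48 line-days its level correlated with the summed astrocyte markers (r = 0.77, rho = 0.82, a description). The brainstem controls at day 5 showed it within 1 group: culture 38 averaged 205 CPM of Igfbp2 with an astrocyte sum of 1759 CPM, and cultures 41 and 42 averaged 25.4 and 39.7 with sums of 249.9 and 286. The telencephalon controls at day 5 did not keep this order. There culture 38 averaged 101 CPM of Igfbp2 with a sum of 6332, culture 41 191.5 with 2886 and culture 42 259.5 with 11450. The lower control level in brainstem than in telencephalon at day 2 (-3.03 ± 0.34, ranges apart) was called, and it was -2.32 and not called without culture 42 and -3.74 without culture 41. The astrocyte sums themselves differed by genotype, in opposite directions in the 2 regions at day 2. In brainstem they were 152, 165 and 81.6 CPM in Control cultures 38, 41 and 42 and 289, 457 and 233 in K27M cultures. In telencephalon they were 1557, 326 and 1959 in Control and 114, 135 and 473 in K27M cultures. At day 5 brainstem culture 38 went the other way, with 1759 in Control and 1055 in K27M. The part of astrocytes in the Igfbp2 values was not tested.

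Igfbp3 was lower at day 5 than at day 0 in each series, but in all except the brainstem controls it was lower still in between. In telencephalon controls the means of cultures 38, 41 and 42 were 34.2, 42.2 and 60.1 CPM at day 1 and 54.5, 90.7 and 115 at day 5. In telencephalon K27M cultures they were 20.4, 22.2 and 28.6 at day 1 and 62.1, 71.2 and 95.8 at day 5. Brainstem K27M cultures had 27.8, 41.5 and 24.0 at day 2 and 54.0, 70.6 and 72.9 at day 5. Its day 0 medians were 157 CPM in brainstem Control, 121 in brainstem K27M, 151 in telencephalon Control and 136 in telencephalon K27M, and by day 5 these were 19.8, 68.7, 74.0 and 71.8. The day 5 change of -2.80 ± 0.21 in brainstem controls was called, as were -0.95 ± 0.20 and -0.89 ± 0.20 in the K27M series, and -0.74 ± 0.20 in telencephalon controls was not. Brainstem controls at day 5 ran from 17.8 to 32.0 CPM and K27M wells from 47.8 to 75.0, a log2 difference of 1.52 ± 0.20 (called, but not without culture 41 or 42, at 1.33 and 1.34), so that the K27M wells stood near both telencephalon groups. In telencephalon K27M wells were lower at day 2, with a median of 38.4 against 107 CPM (-1.25 ± 0.20, called), and overlapped the controls. That call was lost in 5 alternative settings, with -1.47 to -1.06, among them each of the 3 in which 1 culture was left out.

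Igfbp4 reached at most 7.75 CPM and, like Igfbp3, was higher in brainstem K27M wells at day 5. Brainstem controls ran from 0.608 to 1.70 CPM there (median 0.828) and K27M wells from 2.47 to 4.48 (2.98), without overlap and with a log2 difference of 1.55 ± 0.22 (called), which was 2.19 without culture 38. It was 1.22 without culture 41, 1.35 without culture 42 and 1.29 with passage as a covariate, not called in these 3. It fell from day 0 to day 5 in brainstem controls (-1.43 ± 0.22) and telencephalon K27M cultures (-1.40 ± 0.21), both called. None of the telencephalon K27M differences, between -0.59 and 0.47, was called.

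Igfbp5 showed the largest fitted K27M differences of the 10 genes in brainstem. Brainstem controls had medians of 0.382, 0.499, 1.81 and 2.51 CPM and K27M wells 5.16, 15.3, 19.3 and 75.9, and no control well reached a K27M well at any of the 4 days. The log2 differences were 4.28 ± 0.57, 3.80 ± 0.55, 3.80 ± 0.52 and 3.62 ± 0.50, each called. They depended on the culture: at day 5 the control mean was 11.2 CPM in culture 38 and 2.21 and 2.55 in the others, so that the difference was 5.32 without culture 38 and 2.89, not called, without culture 41, and at day 1 it was 5.49 without culture 42 and 3.21, not called, without culture 41. The calls were also lost without culture 42 at day 5 (3.26) and without culture 41 or 42 at day 0 (3.71 and 4.42) and day 2 (4.20 and 3.85). In telencephalon the differences were 2.42 ± 0.48, 1.49 ± 0.53, -0.22 ± 0.48 and -0.35 ± 0.45, none called.

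Igfbp5 rose from day 0 to day 5 in each series, by 4.00 ± 0.57 and 3.35 ± 0.48 in brainstem Control and K27M cultures and by 4.40 ± 0.51 in telencephalon controls, all called, and by 1.62 ± 0.46 in telencephalon K27M cultures as a value that was not called. In brainstem controls the rise was 2.63 without culture 38. Its level also followed passage: in the 13 line-days that mixed passages it was higher at the lower passage each time, with a ratio between 1.06 and 16.2 and a median of 1.80. Igfbp2 was higher at the lower passage in 10 of these 13 line-days, H19 in 9, Igf2 in 6 and Igf1r in 6. With passage as a covariate each of the brainstem K27M calls of Igfbp5 was kept, but passage can still not be fully told apart from genotype. Astrocyte markers correlated with Igfbp5 over line-days (r = 0.66), and their part was not tested. Igfbp2 and Igfbp5 are neighbours on chromosome 1, 5457 bases apart, and their levels correlated with r = 0.60 over the 48 line-days.

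**Figure D4:**
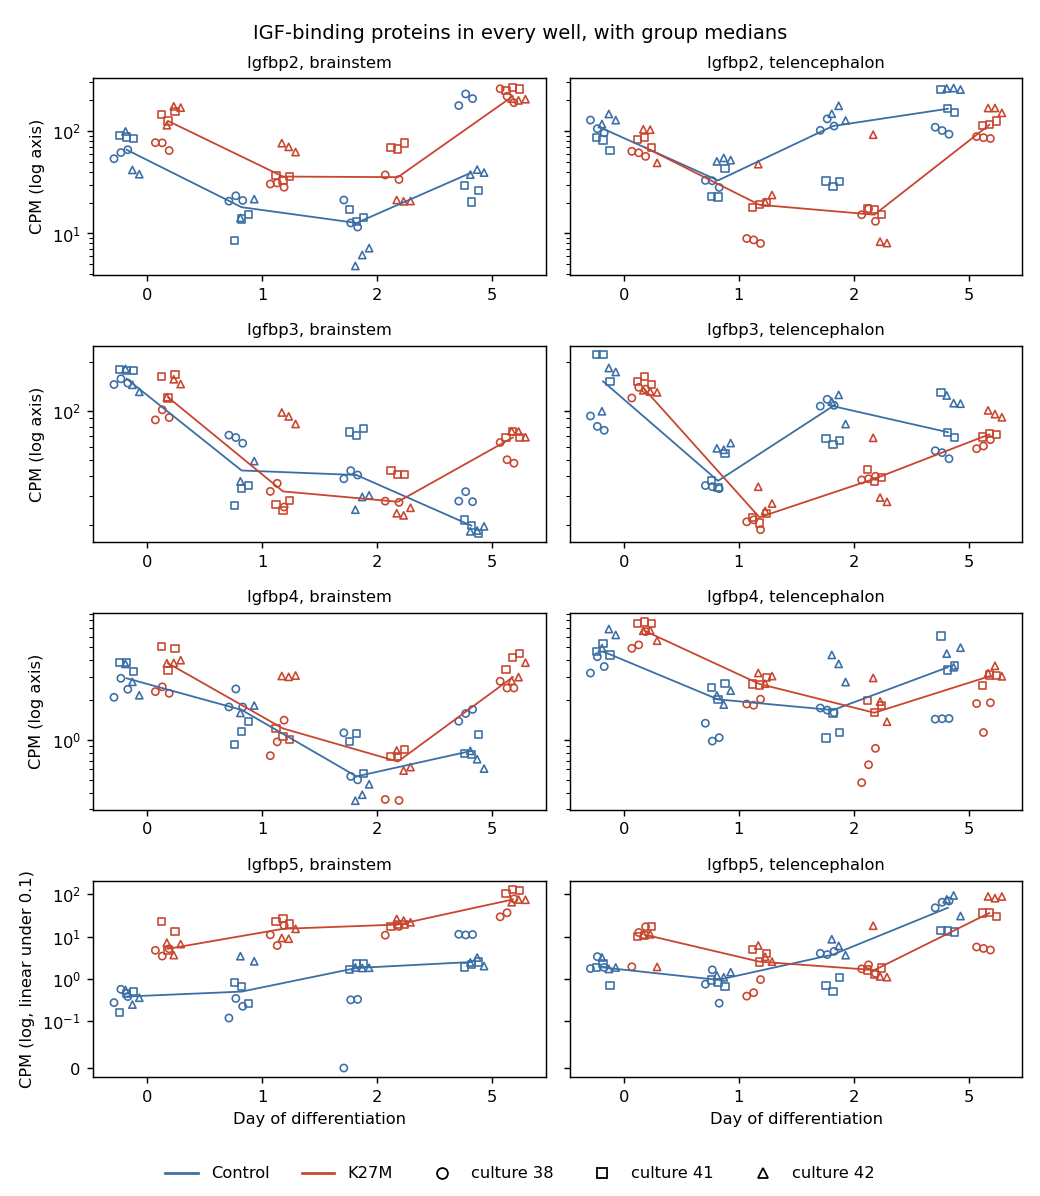
CPM of Igfbp2, Igfbp3, Igfbp4 and Igfbp5 in every well (log axes, Igfbp5 linear under 0.1), by day and region, with control wells in blue, K27M wells in red, 1 marker shape per culture and lines through the group medians. Igfbp5 of brainstem K27M wells lay above all brainstem control wells at each day, and Igfbp3 fell from day 0 to day 1 in all 4 series.

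**Figure D5:**
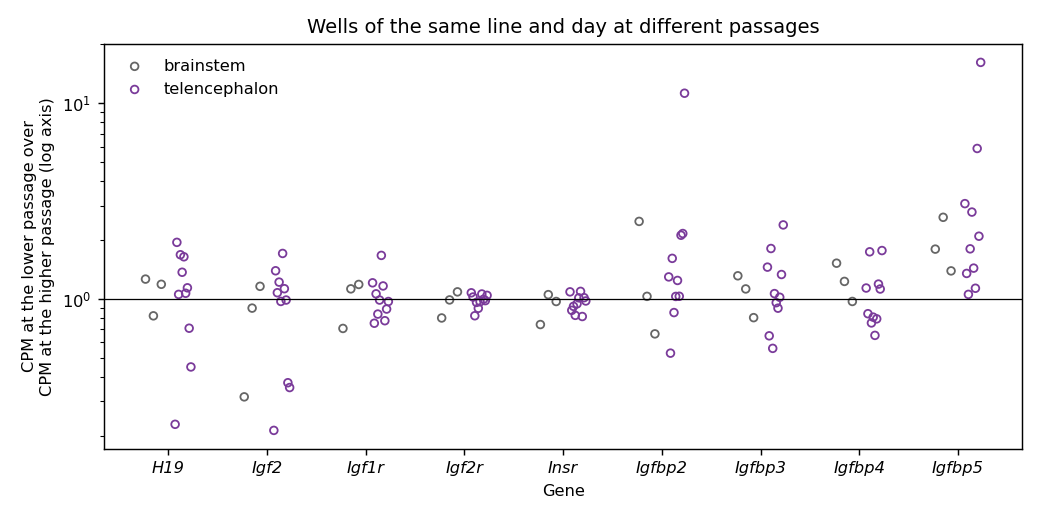
Ratio of the CPM at the lower passage to that at the higher passage (log axis) for each gene except Igf1, in the line-days that held wells of different passage. Igfbp5 lay above 1 in all 13 line-days and Igfbp2 ran from 0.529 to 11.25. Igf1r stayed between 0.707 and 1.67, Igf2r between 0.799 and 1.09 and Insr between 0.740 and 1.09.

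Where region separated the 10 genes, brainstem cultures mostly had less RNA than telencephalon cultures. In controls 4 of the 10 were called between brainstem and telencephalon at day 0 (1 higher in brainstem, 3 lower), 3 at day 1 (1 higher, 2 lower), 5 at day 2 and 6 at day 5 (all lower), where 12.2%, 31.5%, 11.5% and 16.7% of all tested genes were called. In K27M cultures 3, 3, 3 and 2 were called over the 4 days, all lower in brainstem, where 4.28%, 6.11%, 3.72% and 9.2% of all tested genes were called. The control calls at day 5 were H19, Igf2, Igf1r (-0.84 ± 0.13), Igfbp3 (-1.88 ± 0.21), Igfbp4 (-1.50 ± 0.22) and Igfbp5 (-2.86 ± 0.48), and those of K27M cultures were H19, Igf2 and Igf1 at days 0 to 2 and Igf2 and Igf1 at day 5. Leaving out culture 38 made the day 5 control values of Igfbp4 and Igfbp5 -2.46 and -3.79, and leaving out culture 42 made that of Igfbp5 -2.22, not called. With passage as a covariate the day 5 control differences were -1.13 for H19, -2.47 for Igf2, -0.90 for Igf1r, -1.51 for Igfbp3, -1.05 for Igfbp4 and -0.93 for Igfbp5, none of them called.

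Between day 0 and day 5, 7 of the 10 were called in brainstem controls (3 higher, 4 lower), 5 in brainstem K27M cultures (3 higher, 2 lower), 4 in telencephalon controls (3 higher, 1 lower) and 5 in telencephalon K27M cultures (2 higher, 3 lower). The same comparisons called 64.9%, 59.6%, 64.4% and 64.9% of all tested genes. The difference of the K27M effects between regions, fitted as an interaction, was called for 0, 1, 1 and 3 of the 10 at days 0, 1, 2 and 5, where 0.00506%, 10.4%, 1.05% and 5.11% of all tested genes were called. These were Igfbp2 at days 1 and 2 (2.49 ± 0.46 and 4.05 ± 0.46, brainstem minus telencephalon) and Igf1r (0.92 ± 0.18), Igfbp3 (1.68 ± 0.28) and Igfbp4 (1.87 ± 0.30) at day 5. The Igf2 difference, lower in brainstem by 1.95 ± 0.50 at day 5, and the Igfbp5 difference, 3.98 ± 0.66, were not called.

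Transcripts within a gene were not used to choose the genes and were compared between lines. H19-202 held 96.2% of H19 TPM. Of Igf2 TPM, 76.7% came from the transcripts Igf2-201 and Igf2-202 that start in the first promoter window printed above, 3.02% from Igf2-203, which starts in the second, 0.048% from Igf2-204, which starts in a further window at chr7:142661222-142661521, and 20.2% from transcripts that start outside these windows. Igf2-203 was singled out after its values were seen, with no test. It held 18.95% of Igf2 TPM in telencephalon controls and 20.7% in telencephalon K27M wells at day 5, where at least 3 reads were assigned to it in 3 of 9 and in 7 of 9 wells. The K27M wells had a median of 26.1 such reads and a highest value of 62.8, and no well reached 3 reads at day 0 or in brainstem at day 5. It also held 15.6% in brainstem controls at day 1, where 3 of 8 wells had at least 3 reads, as had 2 of 9 in brainstem K27M at day 1 and 3 of 9 in telencephalon K27M at day 2. The transcript is 650 bases long, which raises its TPM for few reads.

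For Igf2, Insr and Igfbp4, where a second transcript held at least 10% of the gene's TPM, the share of the main transcript was tested between the 12 lines with a two-sided exact permutation test and Benjamini-Hochberg adjustment over the 9 tests. Only the Igfbp4 share passed, between day 5 and day 0: Igfbp4-203, a processed transcript without an annotated coding sequence, held 31.6% ± 19.3 (SD, n = 12 lines) at day 5 and 47.1% ± 12.9 at day 0, a difference of -15.5 points (exact permutation p = 0.00146, adjusted p = 0.0132). Median shares over wells went from 49.3% to 0% in brainstem controls and 55.9% to 54.9% in brainstem K27M. In telencephalon they went from 59.5% to 44.8% in controls and 49.8% to 46.2% in K27M. Most groups held wells at 0%. Reads were few: Igfbp4 had a median of 101 per well, and Igfbp4-203 held 14.9% of its reads. On the shares of reads instead of TPM the difference was -5.10 points (adjusted p = 0.0483 by the same exact test), and with 1 culture left out, that is 8 lines, it ran from -12.8 to -18.7 points. With 8 lines the exact test can give no p below 0.00781, which is 0.0703 after adjustment if no other test is as low, so these values were not called and the loss of the call says nothing about stability. The shares of Igf2-201 and Insr-201 did not pass in any comparison, with adjusted p between 0.237 and 0.570 in the exact test, and K27M and control lines differed by 5.67 points for Igf2-201 (65.0% ± 12.9 against 59.3% ± 17.3, n = 6 lines each) and by 2.99 points for Insr-201 (62.1% ± 6.48 against 59.1% ± 3.18), in both cases by less than the spread between lines.

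The rest of the pathway was described with 4 lists of 49 genes, of which 46 were tested and the secreted regulators Igfbp1, Igfals and Ins2 were too low, at no more than 0.235 CPM in any well. The lists were chosen with earlier results of these data known, and genes are named below only where called. Their adjusted p-values are therefore descriptive and not independent evidence. Summed over the 8 K27M comparisons, 36 of 368 gene tests were called, 27 higher and 9 lower. By day, brainstem had 2, 4, 3 and 12 calls among the 46 genes and telencephalon 0, 5, 7 and 3, that is 26.1% of the genes in brainstem at day 5 beside the 12.1% of all genes named above. The list of FOXO factors and messenger partners had 13 of the higher calls, mostly from the RNA-binding proteins of the Igf2bp family, which bind Igf2 and other messengers. Adapters and inhibitors had 6 higher and 5 lower calls, PI3K, AKT and mTOR genes 5 higher and 2 lower, and extracellular regulators 3 higher and 1 lower. These calls leaned on culture 41, without which 2 were called in all, against 32 without culture 38 and 15 without culture 42.

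Igf2bp3, the fetal member of the family, was called in 7 of 8 K27M comparisons and with no overlap of wells in these. At day 2 brainstem control wells ran from 0.0927 to 11.7 CPM (median 1.33) and K27M wells from 51.7 to 82.1 (54.3), and in telencephalon from 4.19 to 10.3 (7.42) and 29.8 to 96.3 (83.5). The log2 difference was 4.68 ± 0.42 in brainstem and 3.31 ± 0.38 in telencephalon, higher in 3 of 3 cultures in both. At day 0 Igf2bp3 was lower in brainstem than in telencephalon controls, as H19 and Igf2 were, with a log2 difference of -2.79 ± 0.37. From day 0 to day 5 it fell in telencephalon controls by 2.80 ± 0.38. Igf2bp3 stood in earlier results of these data, so its values are a description with no p-value. With passage as a covariate the region difference at day 0 was -1.65 and was not called. Igf2bp2, of the same list, was higher in telencephalon K27M cultures at days 2 and 5, by 1.11 ± 0.14 and 1.12 ± 0.14, both called.

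Among extracellular regulators, Igfbpl1, a secreted protein related to the binding proteins, was higher in brainstem K27M cultures at day 1 (1.97 ± 0.29, adjusted p = 0.0323 on line sums) and day 5 (1.72 ± 0.28, adjusted p = 0.0403), and its K27M effect at day 5 was larger in brainstem than in telencephalon by 3.15 ± 0.39 (interaction, adjusted p = 0.0183 on line sums). Brainstem controls at day 5 had 5.95 to 50.3 CPM of Igfbpl1 (median 8.03) and K27M wells 40.4 to 81.9 (53.3), while telencephalon controls had 13.0 to 80.1 (62.6) and K27M wells 4.53 to 29.4 (16.5), so the genotypes stood in opposite order in the 2 regions. Without culture 41 the brainstem day 5 difference of Igfbpl1 was 0.90 and was not called. Igfbp7 was higher in brainstem K27M cultures at day 5 (1.68 ± 0.32, adjusted p = 0.0298), and Htra1, a protease that cleaves binding proteins, was lower in telencephalon K27M cultures at day 2 (-1.81 ± 0.30, adjusted p = 0.0278).

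Among adapters and inhibitors, Socs2, a feedback inhibitor of growth hormone and IGF signalling, was higher in K27M cultures in brainstem at day 5 (1.02 ± 0.17, adjusted p = 0.0263 on line sums) and in telencephalon at day 1 (1.09 ± 0.17, adjusted p = 0.0456). Grb10, an imprinted adapter that inhibits the insulin and IGF1 receptors, was higher in telencephalon K27M cultures at day 2 (1.56 ± 0.21, adjusted p = 0.0141) with overlapping wells. Irs4, an insulin receptor substrate at 0.0460 to 2.23 CPM, differed in its K27M effect between regions at day 2 (3.15 ± 0.44, adjusted p = 0.0139) and day 5 (2.16 ± 0.44, adjusted p = 0.0438). Of the PI3K, AKT and mTOR list, Eif4ebp1, the translation repressor that mTOR inactivates, was higher in brainstem K27M cultures at day 5 (1.11 ± 0.18, adjusted p = 0.014), with an interaction of 1.44 ± 0.25 (adjusted p = 0.0446). These 4 interactions were the ones called among 76 that were examined for the 19 named pathway genes. Of all tested genes 0.00506%, 10.4%, 1.05% and 5.11% were called for the interaction at days 0, 1, 2 and 5. The 19 genes were named for being called in these same data, so the count is a description.

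Differentiation moved most of the pathway. From day 0 to day 5, 34, 33, 35 and 35 of the 46 genes were called in brainstem Control, brainstem K27M, telencephalon Control and telencephalon K27M cultures, 80 of the 137 calls higher, which is 71.7% to 76.1% of the list beside the 59.6% to 64.9% of all genes given above. The regulatory subunit gene Pik3r3 rose by 2.67 ± 0.21, 2.46 ± 0.21, 2.23 ± 0.21 and 3.10 ± 0.22, with a largest adjusted p of 1.07e-05 on line sums. The adapter gene Gab1 rose by 1.25 to 1.86 and the transcription factor gene Foxo6 by 3.45 to 4.74, from a mean of 0.230 to 6.44 CPM in brainstem controls. In the other direction Grb10 fell by 2.25 to 3.63 and Eif4ebp1 by 1.21 to 2.18 in the 4 series, and the catalytic subunit gene Pik3cb fell by 1.08 to 1.22 in the 3 series in which it met the naming rule. Htra1 and Igfbpl1 rose in all 4 (1.74 to 3.34 and 2.14 to 4.28), and Pappa, the protease that frees IGF from IGFBP4, rose by 3.55 to 4.84 in 3 series from means of 0.152 to 0.190 CPM, whereas Stc1, an inhibitor of that protease, fell in 3 (-1.31 to -2.74). Foxo1 and Foxo4 rose by 1.01 to 1.85 and the adapter gene Grb14, in K27M cultures, by 1.20 and 1.90.

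Region gave 43 calls of 368 in the pathway, 19 higher and 24 lower in brainstem. In controls 5, 14, 6 and 5 genes were called over the 4 days, and in K27M cultures 1, 3, 2 and 7. The control counts are 10.9%, 30.4%, 13.0% and 10.9% of the list, beside 12.2%, 31.5%, 11.5% and 16.7% of all tested genes. Those of K27M cultures are 2.17%, 6.52%, 4.35% and 15.2%, beside 4.28%, 6.11%, 3.72% and 9.2%. The control counts thus lay near or below the shares of all genes. Rictor, a subunit of the mTOR complex that phosphorylates AKT, was lower in brainstem controls at day 1 (-1.10 ± 0.15, adjusted p = 0.00436 on line sums), and Grb10 was higher at day 2 (1.57 ± 0.21, adjusted p = 0.00489). Eif4ebp1 was lower in brainstem controls at day 5 (-1.14 ± 0.18, adjusted p = 0.0115), as was Igfbp7 (-1.54 ± 0.32, adjusted p = 0.0428), and Irs4 was higher in brainstem K27M cultures at day 5 (3.26 ± 0.32, adjusted p = 4.06e-05).

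The genes whose pattern over the 48 line-days was most like that of each of the 10, by Pearson's r of log2 CPM among genes with a mean of at least 1 CPM, are given as a description, since the points share libraries, cultures and days. For H19 they were Tox (r = 0.92), Lzts1 (0.90), Mc4r (0.85), Sult4a1 (0.85) and Zfp697 (0.85), and for Igf2 they were Lzts1 (0.85), H19 (0.84), Zfp358 (0.84), Rab3c (0.83) and Sox10 (0.81). Igf1 was closest to Lyz2 (0.84), Sphkap (0.84) and Hdac9 (0.80). Among the receptors, Igf1r was closest to Gng2 (0.84), Igf2r to Fgd3 (0.88) and Insr to Smg1 (0.86). Igfbp2 had Lfng (0.94), Gabra4 (0.93), Nek6 (0.92) and Cd44 (0.92), Igfbp3 had Prokr1 (0.89) and Upp1 (0.87), Igfbp4 had Mest (0.90), itself an imprinted gene, and Etv4 (0.86), and Igfbp5 had Tiam2 (0.87) and P4ha3 (0.86). Etv4 was among the 5 nearest genes of both Igfbp3 and Igfbp4, and Lzts1 among those of both H19 and Igf2.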

How the data were processed

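The deposited files hold, for each of 142 wells, 1 table of transcripts with estimated counts (NumReads) and TPM. Per the labels and the methods of the study, the authors quantified paired-end reads of stranded total RNA libraries with Salmon 1.10.1 against an mm10 decoy-aware transcriptome, with corrections for sequence and GC bias, and named Gencode vM25 as the annotation. The estimated counts are those of the authors' Salmon runs and are not normalized, and the deposited TPM values are scaled by Salmon to the same sum in each library. Because short RNAs took much of that sum, TPM was rescaled without them where levels of genes are set beside each other.

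Transcripts were assigned to genes with the Gencode M21 annotation of GRCm38 (139821 of 141084 transcripts), counts were summed per gene and rounded, and genes were kept with filterByExpr. edgeR 4.0.16 (TMM, quasi-likelihood test, culture within region as a block, all 16 groups in 1 fit, Benjamini-Hochberg over 19769 genes) was run on wells and on counts summed per line and day. Adjusted p-values in the text are those of the line sums unless named otherwise. Wells of a line are not separate cultures, so p-values on wells measure in part technical spread. The block follows the study, which put culture in its model and assayed matched control and K27M cultures together. The scripts were tested on simulated data.

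The 10 genes and all lists were chosen with earlier results of these data known. Pathway genes were named where called with an absolute log2 difference of at least 1, a mean of at least 1 CPM in a compared group and the same sign in all 3 cultures, up to 4 per list and kind of comparison. Shares of transcripts were tested over lines with exact permutation tests (SciPy 1.17.1). Alternatives were wells or sums alone, RLE size factors, no filter on low counts, no block, DESeq2 1.42.0 with a fold threshold of 1.1, each culture left out, passage as a covariate, length offsets, each region alone and no deepest library. Settings without wells of another passage, and both alternatives to the interaction, were added after the data had been seen.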

Additional observations from a re-analysis of the deposited data

Results flagged for a closer look

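Of 160 combinations of gene and group examined, 9 held a well far from the others by Dixon's criterion, where chance flags about 1 in 20 groups. In telencephalon K27M wells at day 2, 1 well of culture 42 at passage 1 was the highest for Igf1 (6.00 CPM, next 0.469), Igfbp2 (92.2, next 17.5), Igfbp3 (68.3, next 43.7) and Igfbp5 (18.1, next 2.15). At day 1 the well of the same culture and passage was the highest for Igfbp2, with 47.5 CPM against 23.8 in the next. In brainstem K27M wells at day 0, a well of culture 38 had 1.59 CPM of Igf2 (next 0.912) and a well of culture 41 had 23.1 CPM of Igfbp5 (next 13.0), and at day 2 a well of culture 38 had 86.3 CPM of Igf1r (next 63.9). The lowest Insr value in brainstem controls at day 5, 56.5 CPM in a well of culture 38, was below the next of 62.1.

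The K27M effect differed between the regions for 3 pathway genes by the interaction term: Eif4ebp1 at day 5 (1.44, brainstem minus telencephalon on the log2 scale), Igfbpl1 at day 5 (3.15) and Irs4 at day 2 (3.15) and day 5 (2.16). For Igfbp2 all 3 brainstem cultures were higher and all 3 telencephalon cultures lower with K27M at days 1, 2 and 5, with differences between the effects of 2.49, 4.05 and 1.99. Igfbp2 was selected on these measurements, so its difference has no p-value here. By the rule used for all genes it was called at days 1 and 2 and not at day 5.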

How the results depend on the processing

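The counts of calls rested on the unit of replication and on single cultures. Pathway calls for K27M, 36 as reported, were 123 on wells alone, 65 with DESeq2 and 2 to 32 with 1 culture left out. For region, 43 as reported, they were 141 on wells alone, 65 with DESeq2, 28 without the filter on low counts and 18 to 37 with 1 culture left out. The calls among the 10 genes for K27M, 25 as reported, were 47 on wells alone, 39 with DESeq2 and 5 to 22 with 1 culture left out, and for region, 29 as reported, 57 on wells alone and 15 to 18 with 1 culture left out. The share of all genes called was not taken under the alternative settings. These counts therefore describe the settings and say nothing particular about the 10 genes. Interactions called among the named pathway genes went from 4 to 27 on wells alone. Without the replicate block of culture, the K27M counts were 16 (pathway) and 15 (the 10 genes) and the region counts 21 and 19, and the day 5 counts of 137 and 21 became 124 and 20. The day 5 counts stayed within 1.5 times the reported ones under every alternative run.

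Among the 75 called differences of the 10 genes, all 1021 recomputed values kept their direction and 147 lost the call, of which 23, 37 and 32 did so without culture 38, 41 and 42, 21 without the replicate block, 18 with passage as a covariate and 9 without wells of another passage. Passages ran from 3 to 8 in brainstem Control, 1 to 6 in brainstem K27M and 1 to 4 in telencephalon wells. Shares of transcripts changed sign in 3 cases without 1 culture: the region difference of Igf2-201 (-9.12 points) ran from -18.4 to 1.61, the latter without culture 38, that of Insr-201 (3.82) from -0.657 without culture 38 to 7.63, and the K27M difference of Igfbp4-203 (6.15) from -0.657 without culture 42 to 14.3; none of these passed its test. The day 5 difference of Igfbp4-203 was -12.8 to -18.7 points with 8 lines, a design in which its adjusted p could hardly pass. The causes were not tested, apart from fewer samples. Depth limits Igf1 most: its median was 4.5 reads a well.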
